A study of Mus musculus with 6 samples.

Results

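Apart from Gm11127, the genes described here carry out peptide presentation by class I molecules of the major histocompatibility complex (MHC). The function of Gm11127, a predicted gene, is not given in the sources used here. The members are the heavy chains H2-K1, H2-D1 and H2-T23, the predicted gene Gm11127, the light chain B2m, the peptide transporter subunits Tap1 and Tap2, the loading factor Tapbp (tapasin), and the immunoproteasome subunits Psmb8 and Psmb9. These 10 genes, of 26566 with a row in the data, were chosen by name with their change between knockout and heterozygous libraries already known. Differences of the members in that comparison are therefore given as a description, and the adjusted p-values printed for them are those of a fit across all genes that supports nothing by itself.

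A class I molecule is a heavy chain that pairs with beta-2 microglobulin (B2m) and holds a short peptide at the cell surface for inspection by T cells and natural killer cells. Most such peptides are cut by the proteasome, pumped into the endoplasmic reticulum by the Tap1-Tap2 transporter, and loaded with the help of tapasin. Interferon raises many of these genes together and exchanges constitutive proteasome subunits for the immunoproteasome subunits Psmb8, Psmb9 and Psmb10. Embryonic cells usually express class I genes at low levels.

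The RNA came from cap mesenchyme, the cells that surround each ureteric tip in the developing kidney and include the nephron progenitors, isolated by fluorescence-activated sorting. All 6 libraries came from C57BL/6 mouse embryos at embryonic day 18.5 with a Six2.Cre transgene, in which the Six2 promoter drives Cre recombinase in nephron progenitors. The 3 heterozygous libraries are labelled Dnmt1 +/- and had 1 conditional Dnmt1 allele deleted, and the 3 knockout libraries are labelled Dnmt1 -/- and had both deleted; Dnmt1 copies DNA methylation onto new strands after replication. No Cre-negative or wild-type library was among them, so all comparisons are with cells that carry Cre and 1 working allele. Whether the 3 libraries of a group represent separate embryos or litters is not stated in the labels, and p-values therefore reflect the spread among these samples alone, which may be technical.

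Values are CPM (kallisto estimated counts per gene, scaled to library size after edgeR's composition normalisation), or TPM (abundance per transcript length) where levels of different genes are compared. Estimated counts totalled 46741667 to 61585484 per library, so that 3 counts corresponded to 0.0487 to 0.0642 CPM, a limit that covers counting error only. Dnmt1 itself stood at 40.0 to 52.4 CPM in heterozygous and 14.9 to 20.9 CPM in knockout libraries, which follows the labels. The summed level of 10 cap mesenchyme markers was 1388 to 1577 CPM in heterozygous and 1092 to 1316 CPM in knockout libraries. Their median log2 fold change was -0.33, and 1 of the 10, Cited1, was called lower by edgeR. DESeq2 called 3 lower and 1 higher, and 4 lower and 1 higher had an unadjusted edgeR p below 0.05. Every knockout library lay below every heterozygous one for 5 of the 10, against 14.2% of all genes tested, and above for 1. A Benjamini-Hochberg adjusted p below 0.05 in edgeR's quasi-likelihood test was reached by 1163 of the 16989 genes kept (6.85%), 836 of them with higher and 327 (1.92%) with lower expression in the knockout.

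Proximal promoters of the heavy chains, B2m and Tap1 are shown first, because classical class I genes share short motifs there that bind interferon- and inflammation-responsive factors. RefSeq promoter sequences (GRCm38.p6) were matched for 9 of the 10 members. Each line holds the 250 bases before an annotated start, 5′ to 3′ on the gene's own strand, with capitals marking every match on either strand to 5 motifs. The motifs were the interferon-stimulated response element core (GAAA, any 2 bases, GAAA), TTCNNNGAA (the gamma-activated site), the NF-kB consensus, TGACG (core of the cyclic AMP response element, in the X2 box of class I promoters) and CCAAT (the Y box). For H2-K1, which has 2 annotated starts with overlapping windows, the downstream window is printed.
H2-K1 (chr17:34000334-34000583, minus strand): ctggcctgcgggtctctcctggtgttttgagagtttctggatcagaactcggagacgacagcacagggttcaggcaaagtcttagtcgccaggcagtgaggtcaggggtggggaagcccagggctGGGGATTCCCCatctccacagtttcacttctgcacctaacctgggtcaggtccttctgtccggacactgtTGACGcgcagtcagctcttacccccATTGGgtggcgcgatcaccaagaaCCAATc
H2-D1 (chr17:35262844-35263093, plus strand): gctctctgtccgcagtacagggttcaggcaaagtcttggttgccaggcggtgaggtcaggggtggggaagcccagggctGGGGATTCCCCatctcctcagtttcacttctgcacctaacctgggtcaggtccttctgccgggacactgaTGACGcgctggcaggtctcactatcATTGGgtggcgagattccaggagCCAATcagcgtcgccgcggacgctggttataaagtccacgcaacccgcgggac
H2-T23 (chr17:36032702-36032951, minus strand): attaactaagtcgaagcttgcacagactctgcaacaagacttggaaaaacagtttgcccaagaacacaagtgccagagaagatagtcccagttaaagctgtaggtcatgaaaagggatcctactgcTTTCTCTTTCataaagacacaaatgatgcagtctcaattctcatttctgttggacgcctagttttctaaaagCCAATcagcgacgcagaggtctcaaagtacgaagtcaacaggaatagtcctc
Gm11127 (chr17:36058372-36058621, minus strand): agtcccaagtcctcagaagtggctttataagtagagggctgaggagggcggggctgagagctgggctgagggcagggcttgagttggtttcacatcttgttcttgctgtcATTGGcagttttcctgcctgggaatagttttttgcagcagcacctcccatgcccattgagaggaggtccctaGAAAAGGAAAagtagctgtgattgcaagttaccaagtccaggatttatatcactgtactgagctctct
B2m (chr2:122147437-122147686, plus strand): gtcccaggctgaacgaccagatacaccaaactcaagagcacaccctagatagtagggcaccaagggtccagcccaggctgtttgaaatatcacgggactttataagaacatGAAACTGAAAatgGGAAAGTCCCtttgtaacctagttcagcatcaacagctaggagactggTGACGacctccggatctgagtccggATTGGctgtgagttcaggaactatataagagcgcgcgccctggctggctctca
Tap1 (chr17:34187306-34187555, plus strand): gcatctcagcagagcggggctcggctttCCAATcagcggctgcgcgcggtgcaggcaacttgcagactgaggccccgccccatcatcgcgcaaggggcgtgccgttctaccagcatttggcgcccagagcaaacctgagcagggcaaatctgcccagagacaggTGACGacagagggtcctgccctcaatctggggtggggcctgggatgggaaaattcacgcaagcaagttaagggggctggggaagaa
H2-K1 and H2-D1 each held 2 overlapping NF-kB matches in 1 run of capitals, followed by TGACG and CCAAT boxes in the same order. B2m held interferon response element, NF-kB, TGACG and CCAAT matches within the same window. The promoter of H2-T23 had an interferon response element core and a CCAAT box, and that of Gm11127 had the same pair of motifs in the opposite order. Across the 9 promoters, an exact match to the interferon response element core occurred in 3 (H2-T23, Gm11127 and B2m). Of 27025 promoters of the same length, 3.0% held such a match. Variants of this core were not searched for. Promoters without an exact match, those of H2-K1 and H2-D1 included, may therefore still hold an interferon response element. The NF-kB consensus occurred in 3 (H2-K1, H2-D1 and B2m) against 4.8%, TTCNNNGAA in 1 (Psmb8) against 7.2%, TGACG in 5 against 17.9%, and CCAAT in 8 against 34.5%. Tap1 and Psmb9 are transcribed in opposite directions from 1 stretch, and their windows share 225 bases (chr17:34187331-34187555), so their matches are not independent. These matches describe sequence only.

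CpG dinucleotides, the sites that Dnmt1 keeps methylated, numbered 9 in the H2-K1 window, 14 in H2-D1, 5 in H2-T23, 8 in B2m, 14 in Tap1, 10 in Tapbp, 10 in Psmb8 and 12 in Psmb9. The median of all 27025 promoters was 6, with quartiles of 2 and 16. Gm11127 had 1 CpG, and 8.3% of promoters had fewer. The other 8 promoters thus lay between the quartiles, and Gm11127 lay below the lower quartile. DNA methylation was not measured in the data used here.

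In the fit across all genes, 4 of the 10 members passed the threshold as higher in knockout libraries (H2-K1, H2-T23, Gm11127 and B2m), none as lower, and 6 did not pass; 4.92% of all genes tested were called higher. Every knockout library lay above every heterozygous library for 7 of the 10, against 14.8% of all genes tested (29% without overlap in either direction). All 10 log2 fold changes were above 0, with a median of 1.30 against -0.0028 over all genes. Since the members were chosen with this comparison known, nothing is read from these counts.

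**Figure D1:**
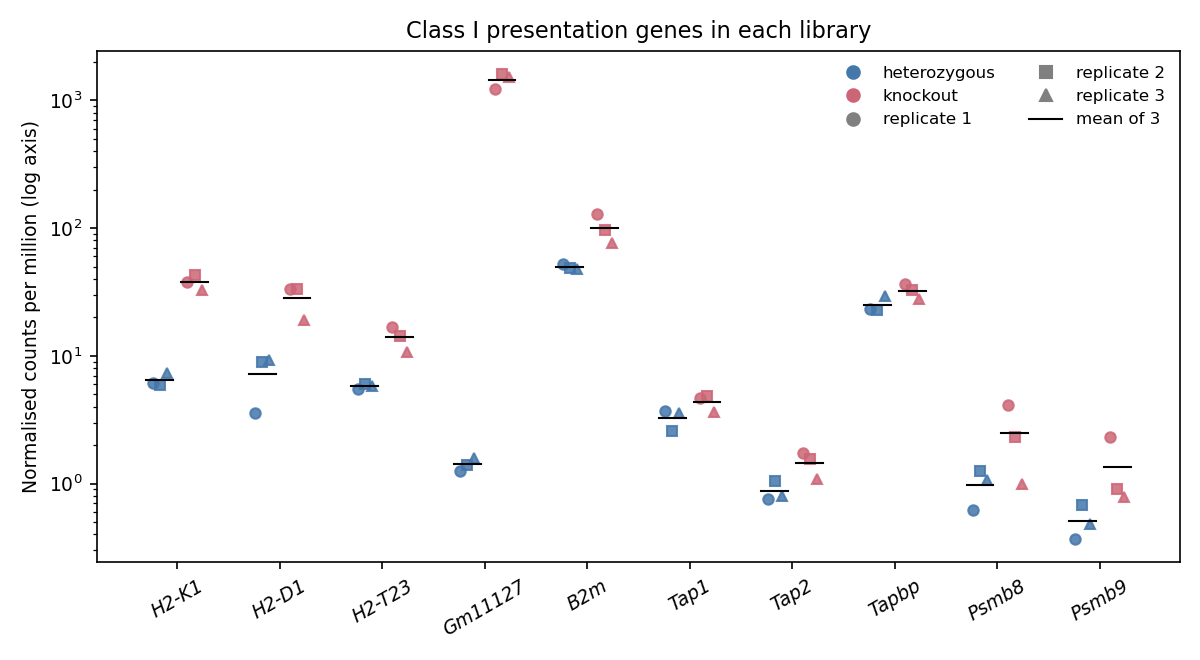
Normalised CPM (log axis) of the 10 members in each of the 3 heterozygous and 3 knockout libraries, 1 point per library with its replicate number as the symbol, and a bar at the mean of 3. Gm11127 moves from 1.26 to 1.59 CPM up to 1226 to 1611 CPM, the heavy chains and B2m separate by group, and Tap1, Tapbp and Psmb8 overlap.

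H2-K1 (ENSMUSG00000061232, chr17:34132962-34137278 on NCBIM37, minus strand) encodes 1 of the classical heavy chains of C57BL/6 mice. In order of replicate number, its level was 6.09, 5.95 and 7.37 CPM with 1 allele of Dnmt1 and 37.6, 42.6 and 33.0 CPM with none, and values of the other members are given in the same order, with gene coordinates on NCBIM37 throughout. The groups lay far apart, and no library of either group approached the other. The log2 fold change was 2.54 ± 0.14 (SE; adjusted p = 1.35e-06).

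H2-D1 (chr17:35399675-35404444, plus strand), the other classical heavy chain here, was measured at 3.56, 8.90 and 9.25 CPM in heterozygous and 33.2, 33.2 and 19.1 CPM in knockout libraries. The groups did not overlap, but heterozygous replicate 1 was well below the others of its group and knockout replicate 3 below its own group. With that spread the log2 fold change of 1.98 ± 0.43 (SE) missed the threshold (edgeR adjusted p = 0.0579). It passed in 7 of 18 alternative analyses, among them DESeq2 (adjusted p = 0.000824) and the fits without heterozygous replicate 1 (0.0228) or knockout replicate 3 (0.0309).

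H2-T23 (chr17:36166718-36169800, minus strand) encodes Qa-1, a non-classical heavy chain that shows leader peptides of other class I chains to natural killer receptors. Its levels were 5.54, 6.04 and 5.78 CPM in heterozygous and 16.9, 14.4 and 10.8 CPM in knockout libraries. All 3 knockout libraries were higher, with replicate 3 lowest among them. The log2 fold change was 1.28 ± 0.18 (SE; adjusted p = 0.00167).

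B2m (chr2:121973422-121978819, plus strand), the light chain shared by all class I heavy chains and the only member outside chromosome 17, stood at 52.3, 48.3 and 47.9 CPM in heterozygous libraries. In knockout libraries it reached 129, 97.1 and 76.2 CPM. The heterozygous values were close together, and every knockout value was above them. The log2 fold change was 1.02 ± 0.17 (SE; adjusted p = 0.0110). The call was lost in 5 of 18 alternatives: without heterozygous replicate 1, 2 or 3 (adjusted p = 0.0833, 0.0593 and 0.0625), and with limma on log2(TPM + 1) or log2(TPM + 0.1) (0.0530 and 0.0526), while the log2 fold change stayed between 0.82 and 1.19 over all 18.

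None of the transporter, loading and immunoproteasome members passed the threshold. Tap1 (chr17:34324498-34334170, plus strand), which forms the peptide transporter with Tap2, was at 3.71, 2.59 and 3.55 CPM in heterozygous and 4.65, 4.80 and 3.62 CPM in knockout libraries. The groups overlapped, and the log2 fold change was 0.41 ± 0.24 (SE; adjusted p = 0.348). Tap2 (chr17:34340472-34353266, plus strand) was near the lower end of what could be tested, at 0.758, 1.05 and 0.794 CPM against 1.74, 1.54 and 1.08 CPM. In CPM its groups touched without overlapping, with a log2 fold change of 0.74 ± 0.33 (SE, edgeR adjusted p = 0.223). In TPM they overlapped, at 0.28, 0.47 and 0.75 in heterozygous and 0.66, 0.60 and 0.48 in knockout libraries. In the alternative with a transcript-length offset the log2 fold change was 0.37 (edgeR adjusted p = 0.641). Tapbp (chr17:34052844-34066235, plus strand), whose product holds the empty heavy chain next to the transporter, was at 23.1, 22.7 and 29.4 CPM against 36.3, 33.0 and 28.0 CPM. Heterozygous replicate 3 exceeded knockout replicate 3, and the log2 fold change of 0.37 ± 0.13 (SE) did not pass (adjusted p = 0.140).

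Psmb8 (chr17:34334666-34338399, plus strand), the immunoproteasome counterpart of Psmb5, was at 0.622, 1.26 and 1.06 CPM in heterozygous and 4.09, 2.33 and 0.982 CPM in knockout libraries. Knockout replicate 1 was highest and knockout replicate 3 lay inside the heterozygous range, giving a log2 fold change of 1.33 ± 0.50 (SE; adjusted p = 0.164). Without knockout replicate 3 the gene passed the threshold (log2 fold change 1.71, adjusted p = 0.0358), and without knockout replicate 1 the log2 fold change was 0.76. Psmb9 (chr17:34318932-34324697, minus strand), the counterpart of Psmb6, was at 0.369, 0.681 and 0.485 CPM against 2.33, 0.906 and 0.786 CPM. Here too knockout replicate 1 stood above the rest; the log2 fold change was 1.38 ± 0.49 (SE; adjusted p = 0.129) and 0.73 without that library.

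**Figure D2:**
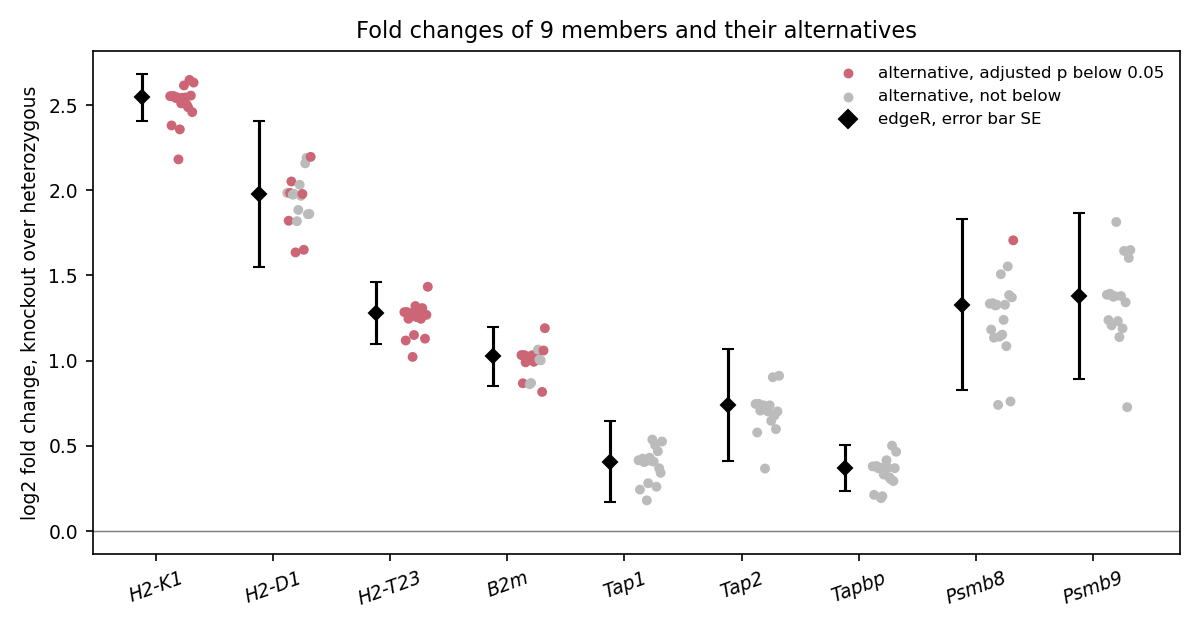
log2 fold change, knockout over heterozygous, of the 9 members other than Gm11127: black diamonds are edgeR estimates with their standard error, and small points are the alternative analyses, red where the adjusted p was below 0.05 and grey where it was not. All points lie above 0; H2-K1 and H2-T23 are red throughout, H2-D1 and B2m are mixed, and Psmb8 has 1 red point.

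Per length, the members differed widely in level. In heterozygous libraries B2m was highest at 80.9 ± 8.25 TPM (SD, n = 3), followed by Tapbp at 13.8 ± 2.04 TPM. H2-K1 (5.37 ± 0.69 TPM), H2-D1 (5.23 ± 2.25 TPM) and H2-T23 (4.71 ± 0.24 TPM) came next, and the ranges of these 3 overlapped one another. Tap1 (1.39 TPM), Gm11127 (1.36 TPM), Psmb8 (0.946 TPM), Tap2 (0.501 TPM) and Psmb9 (0.490 TPM) followed, again with overlapping neighbours. In knockout libraries Gm11127 led at 1282 ± 129 TPM, then B2m at 152 ± 45.7 TPM and H2-K1 at 27.9 ± 2.83 TPM, each without overlap to the next. H2-D1 (17.9 TPM) and Tapbp (15.9 TPM) overlapped, as did Tapbp and H2-T23 (10.8 TPM). Gm11127 thus went from the seventh place in heterozygous libraries to the first in knockout libraries, H2-K1 held the third place in both, and Tapbp stood above H2-K1 in heterozygous and below it in knockout libraries, without overlap in either group.

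The proportion of light to heavy chain was compared next. With Gm11127 left out, B2m TPM divided by the summed TPM of the class I heavy chains was 1.66, 1.37 and 1.34 in heterozygous and 1.71, 1.33 and 1.29 in knockout libraries. The means of 1.46 ± 0.17 and 1.45 ± 0.23 (SD, n = 3 each) differed by less than the spread between libraries. With Gm11127 included the ratio went from 1.42 ± 0.17 to 0.112 ± 0.044. For the catalytic proteasome subunits, Psmb8 TPM was 0.338% ± 0.138 of Psmb5 TPM in heterozygous and 1.01% ± 0.777 in knockout libraries, and Psmb9 was 0.0628% ± 0.0202 and 0.149% ± 0.0946 of Psmb6. Psmb10, the remaining immunoproteasome subunit, was 6.79% ± 1.78 and 9.50% ± 1.40 of Psmb7. In both genotypes each immunoproteasome subunit was thus well below its constitutive counterpart.

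Class I paralogs are alike enough to share reads, which kallisto divides by estimation. Of the 31-base words (31-mers) of the main protein-coding transcript H2-K1-001, 23.6% also occurred in protein-coding transcripts of another gene, most often H2-D1 (17.1%). The share was 27.6% for H2-D1-001, 31.1% for H2-T23-001, 13.8% for Psmb9-001 (all with the adjoining Tap1) and 0 for B2m-001. A sum over class I heavy chains does not depend on that division among them. The planned sum of 33 annotated entries, which included Gm11127 and also H2-Ke2 and H2-Ke6, which are not class I heavy chains, changed by 3.21 on the log2 scale (edgeR adjusted p = 4.56e-08) and was mostly Gm11127 in knockout libraries. With those 3 left out, a choice made after seeing the data, the remaining 30 entries summed to 4154, 5263 and 4057 counts in heterozygous and 8090, 8682 and 7039 counts in knockout libraries. This sum rose by 0.88 on the log2 scale (edgeR adjusted p = 0.000334; 0.72 to 0.97 over 18 alternatives, passing in each). It contains H2-K1, H2-D1 and H2-T23 and is therefore no independent evidence of their direction. Because Gm11127 is left out, this smaller sum does depend on how reads were divided between Gm11127 and the entries kept. Among the entries kept, H2-T22-201 shared 9.7% and H2-T9-201 67.3% of its 31-mers with Gm11127.

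At the transcript level, 44 annotated transcripts belonged to the members, 25 could be tested, 6 were called higher and none lower by edgeR, where 1.59% of 50137 transcripts tested were called higher (1.79% in either direction). At an unadjusted p below 0.05 the counts were 12 and 0, and with DESeq2 8 and 0. H2-K1 gave 3 of the 6. The protein-coding H2-K1-001 was at 3.37, 3.37 and 4.70 CPM in heterozygous and 22.2, 30.1 and 22.9 CPM in knockout libraries (log2 fold change 2.72 ± 0.20, SE; adjusted p = 0.000932). H2-K1-003, also protein coding, changed by 2.94 ± 0.31 (SE; adjusted p = 0.00501). H2-K1-004, which retains an intron, changed by 2.16 ± 0.38 (SE; adjusted p = 0.0439), a call that was lost in 8 of 11 alternatives. Protein-coding transcripts held 80.9%, 71.5% and 76.5% of H2-K1 counts in heterozygous and 78.5%, 82.7% and 87.9% in knockout libraries, with overlapping ranges. The other 3 called transcripts were H2-T23-001 (1.44 ± 0.21, SE), B2m-001 (1.09 ± 0.19) and Gm11127-001. For Tap1, the transcript Tap1-001 had a log2 fold change of 0.96 ± 0.32 and Tap1-005 one of -2.61 ± 1.37 (SE), and neither passed (adjusted p = 0.261 and 0.469). Tap1-005 was at 0.723, 0.470 and 0.887 CPM in heterozygous libraries and at 0 or next to it in knockout replicates 1 and 2 and 0.340 CPM in replicate 3.

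Gm11127 (ENSMUSG00000079492, chr17:36192761-36195316 on NCBIM37, minus strand) showed by far the greatest difference among the members. It is annotated as a protein-coding predicted gene with a single transcript of 1344 bases, in the H2-T region next to H2-T22 and H2-T23. Its estimated counts were 65, 82 and 72 in heterozygous and 57804, 83523 and 78241 in knockout libraries. In CPM these were 1.26, 1.40 and 1.59 against 1226, 1611 and 1537, a 1030-fold ratio of group means (log2 fold change 10.01 ± 0.17, SE; adjusted p = 6.69e-10). All 3 knockout libraries were similarly high, and the transcript took 0.125% to 0.150% of the TPM summed over the 26566 genes there. Its counts were 7.15, 9.62 and 11.1 times the summed counts of the class I heavy chains in knockout libraries and 0.0157, 0.0155 and 0.0178 times in heterozygous ones.

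The sequence behind these counts is mostly not unique to the gene. Of the 31-mers of Gm11127, 13.7% occurred once in the NCBIM37 genome, and 86.8% also occurred in a protein-coding transcript of another gene. The gene sharing most was Gm6034 (45.4%), which overlaps it on the opposite strand. No source used here gives the strandedness of the libraries, and reads from the stretch that Gm11127 and Gm6034 share cannot be told apart; Gm6034 was itself assigned 0 to 0.0221 CPM in heterozygous and 0.196 to 0.255 CPM in knockout libraries and was too low to test. Between bases 601 and 900 the 31-mers had up to 25 genome copies. From base 1033 on, inside the last exon, window medians were 244 to 1966.5 copies, with a maximum of 4944. In all, 21.3% of the 31-mers had at least 100 copies, a limit chosen after seeing the data, and those starting in the 3′ UTR had a median of 659. The coding end of the transcript, where this begins, is printed from the GENCODE vM1 transcript (chr17:36192970-36193091 on NCBIM37, minus strand, transcript bases 1014 to 1135), with capitals for the bases covered by 31-mers of at least 100 copies.
Gm11127 last exon, coding part: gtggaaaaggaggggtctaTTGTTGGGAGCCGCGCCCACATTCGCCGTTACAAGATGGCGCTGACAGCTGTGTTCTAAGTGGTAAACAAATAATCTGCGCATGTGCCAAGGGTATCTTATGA
Of these 122 bases, 103 are in capitals, so the annotated reading frame of the class I-like transcript ends in a sequence that is dispersed over the genome.

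**Figure D3:**
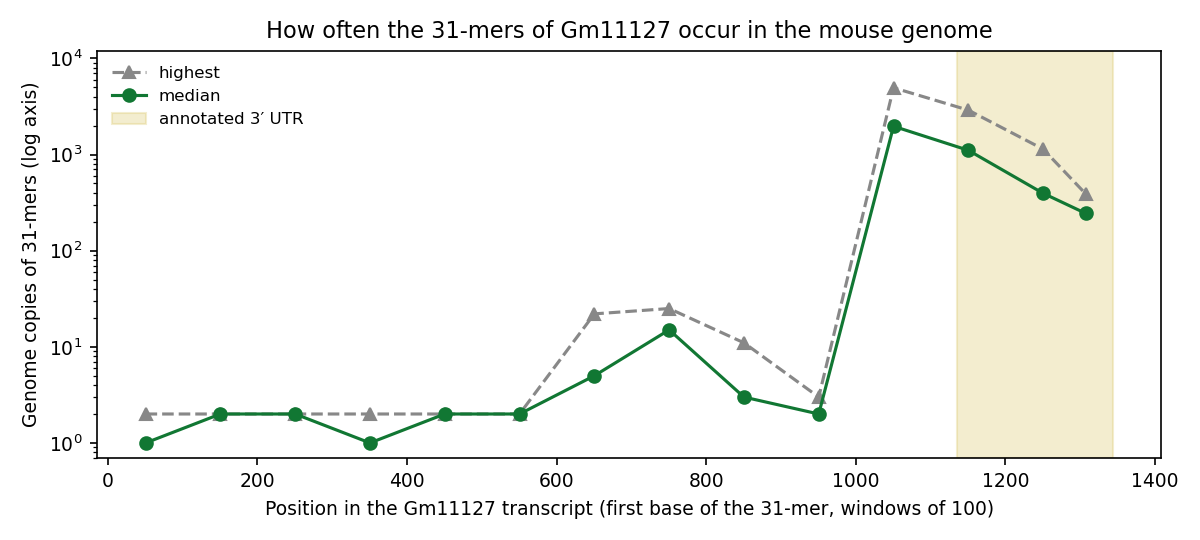
Genome copies (log axis) of the 31-mers along the Gm11127 transcript, in windows of 100 first bases; circles are window medians, triangles window maxima, and the shaded span is the annotated 3′ UTR. Copies stay at 25 or below up to base 1000 and reach 4944 in the window from base 1001.

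Other genes with the same repeated 31-mers were examined in the same fit. There were 13, all of them tested: 8 were higher in knockout libraries, 0 lower and 5 did not pass (10 and 0 at an unadjusted p below 0.05, 9 and 0 with DESeq2, 8 and 0 with limma voom), with a median log2 fold change of 1.07. Of all genes tested, 4.92% were called higher by edgeR. Reads on the repeated 31-mers can be divided by kallisto between Gm11127 and these genes, so the 13 values are not separate observations. Those named here were chosen after their values were seen. The solute carrier Slc38a6 went from a mean of 232 to 20752 CPM, and Inadl, which encodes a scaffold protein of tight junctions, from 27.2 to 663 CPM. Zfp575 went from 1.05 to 183 CPM, A430078G23Rik from 3.83 to 299 CPM and Psg23 from 4.75 to 168 CPM, with log2 fold changes of 7.43, 6.28 and 5.15. Zfp706 (0.72), 2310061C15Rik (1.07) and 2010015L04Rik (1.11) rose less on the log2 scale, and 5730403B10Rik, which holds 57 of the repeated 31-mers, had a log2 fold change of -0.05. The deposited values do not record on which bases of a transcript the counts fell, and the part of this repeat in the Gm11127 difference was not tested. The same measure was 0% of 31-mers for H2-K1-001, B2m-001, Psmb8-001 and Psmb9-001, 3.2% for H2-D1-001, 11.4% for H2-T23-001 and 2.4% for Tapbp-001.

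No other gene close to a member passed the test, among those with enough counts to be tested. Within 50 kb of a member lay 43 other genes, of which 28 were tested, none was called in either direction by edgeR or limma voom, and the median log2 fold change was -0.0047. Of all genes tested, edgeR called 6.85% in either direction. The neighbours not tested had too few counts and are not covered by this result. At an unadjusted p below 0.05, 4 were higher and 2 lower, and DESeq2 called 3 higher and 2 lower. Around H2-T23 and Gm11127, the class I genes H2-T22 and H2-T24, named after their values were seen, had log2 fold changes of 0.34 ± 0.12 and -0.48 ± 0.14 (SE; adjusted p = 0.122 and 0.0810). H2-T22 was at 21.0, 23.2 and 22.2 CPM in heterozygous and 30.97, 28.7 and 24.2 CPM in knockout libraries. H2-T24 was at 21.4, 19.9 and 19.7 CPM against 12.5, 13.6 and 17.7 CPM. Both had groups that did not overlap, in opposite directions, where 29% of all genes tested had no overlap.

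The rest of the pathway was read from lists of further genes. Of 17 tested entries for other class I and class I-like heavy chains, 1 was higher, none lower and 16 did not pass, with a median log2 fold change of 0.28. EdgeR called 4.92% of all genes tested higher. DESeq2 called 2 of the 17 higher and 1 lower, and 5 and 2 had an unadjusted edgeR p below 0.05. Every knockout library lay above every heterozygous one for 8 of the 17 and below for 2, against 14.8% and 14.2% of all genes tested. The 1 called higher by edgeR was H2-M3, which presents N-formylated peptides of bacteria and mitochondria. It was at 1.40, 0.732 and 1.24 CPM in heterozygous and 6.32, 5.03 and 3.52 CPM in knockout libraries (log2 fold change 2.14 ± 0.33, SE, edgeR adjusted p = 0.00267). Its knockout libraries all lay above the heterozygous ones. H2-Q6, named after its values were seen, was at 6.38, 8.35 and 7.08 CPM against 14.04, 10.3 and 10.3 CPM and did not pass (0.67 ± 0.18, SE; adjusted p = 0.0560). None of 14 loading and trimming genes passed in edgeR or limma voom (median 0.09), DESeq2 called 2 higher, and 2 higher and 2 lower had an unadjusted edgeR p below 0.05. Among them the chaperones Hspa5, Canx and Calr were the most abundant, with log2 fold changes of -0.02 ± 0.09, 0.16 ± 0.10 and 0.22 ± 0.08 (SE). None of 16 other proteasome genes passed in edgeR, limma voom or DESeq2 (median 0.08; 3 higher and 1 lower at an unadjusted edgeR p below 0.05), with Psmb6 at 0.17 ± 0.10, Psma7 at 0.18 ± 0.08 and Psmb1 at 0.12 ± 0.08 (SE). The lists of peptide cutting and folding genes thus had medians within 0.1 of the median of all genes.

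Among 26 regulators of class I genes, 1 was higher, 1 lower and 24 did not pass, with a median log2 fold change of 0.09. The shares over all genes tested were 4.92% higher and 1.92% lower. DESeq2 called 4 higher and 1 lower, and limma voom 0 and 1. Irf9, the DNA-binding subunit of the type I interferon signalling complex, rose from 14.4, 18.5 and 14.1 to 24.8, 24.5 and 19.8 CPM (log2 fold change 0.55 ± 0.14, SE; adjusted p = 0.0478). Nfkb1, a subunit of NF-kB, fell from 27.2 ± 3.69 to 18.3 ± 2.26 CPM (SD, n = 3; log2 fold change -0.57 ± 0.13, SE; adjusted p = 0.0312). For both the groups did not overlap, as for 29% of all genes tested. Nlrc5, the transactivator of class I genes and named after its values were seen, was at 0 to 0.204 CPM in heterozygous and 0.196 to 0.752 CPM in knockout libraries (adjusted p = 0.202). Of 8 interferon ligands only Ifnk was abundant enough to test and it did not pass (unadjusted p not below 0.05); Ifnb1 and Ifna4 had no counts in any library, where 3 counts would be 0.0487 to 0.0642 CPM.

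Class I genes are expressed strongly by endothelium and leukocytes, so markers of other cell types in the sort were set beside the members. The 12 endothelial markers summed to 39.9, 54.9 and 51.7 CPM in heterozygous and 235, 104 and 60.3 CPM in knockout libraries. Of the 12, 1 (Emcn) was called higher by edgeR, against 4.92% of all genes tested, and 5 by DESeq2. None was at 0, and the median log2 fold change was 1.83. The sum was highest in knockout replicate 1 and lowest, within that group, in knockout replicate 3. The same held for 7 of the 10 members, and not for H2-K1, Gm11127 and Tap1. Markers of stroma (255.6 to 332 against 320 to 759 CPM) and of ureteric bud (34.4 to 54.5 against 43.0 to 172 CPM) were highest in the same library.

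The 12 macrophage and leukocyte markers summed to 20.8 to 22.7 CPM in heterozygous and 28.4 to 36.8 CPM in knockout libraries. Their median log2 fold change was 0.53, and 2 of 12 were called higher (Lyz2 and Mrc1), against 4.92% of all genes tested. The pan-leukocyte marker Ptprc was at 0.331 to 0.914 CPM and 0.482 to 1.15 CPM. Class II genes and their partners summed to 110 to 144 CPM against 220 to 350 CPM, with a median log2 fold change of 0.70. Of the 7, 3 were called higher, against the same 4.92%. These were Cd74, the class II invariant chain (2.46 ± 0.30), H2-Aa (1.23 ± 0.22) and H2-Eb1 (0.76 ± 0.16, SE), while their transactivator Ciita had a log2 fold change of -0.39 ± 0.25 and did not pass. Markers of T and NK cells summed to 2.56 to 3.27 CPM over all 6 libraries with none called by any tool or at an unadjusted p below 0.05, and Cd3e, Cd3g, Nkg7 and Gzmb were at 0 or near it. In these bulk libraries, a different number of cells of a type and a different amount of RNA per cell cannot be told apart.

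The members were also fitted without knockout replicate 1; the other knockout libraries still had endothelial sums above the heterozygous ones. Without that library the log2 fold change was 2.56 for H2-K1, 1.13 for H2-T23, 10.13 for Gm11127 and 0.82 for B2m, all 4 still called (edgeR adjusted p = 1.95e-06, 0.00320, 1.37e-11 and 0.00125). It was 1.86 for H2-D1, 0.60 for Tap2, 0.37 for Tap1 and 0.29 for Tapbp, none called. For Psmb8 and Psmb9 it fell to 0.76 and 0.73, as given above. The part of other cell types in the differences that remained was not tested.

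**Figure D4:**
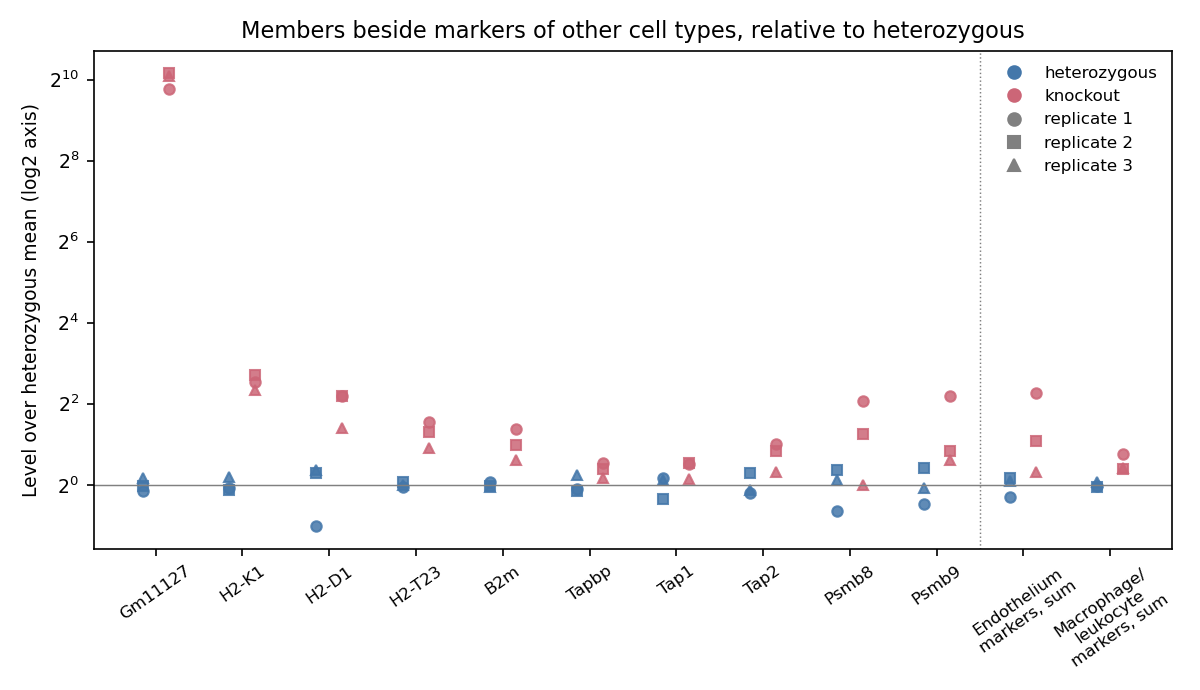
Level of each member, and of the summed endothelial and macrophage/leukocyte markers, in each library divided by the mean of the 3 heterozygous libraries (log2 axis); colour marks genotype and symbol the replicate. The highest knockout library is 4.17 times the lowest for Psmb8, 2.97 times for Psmb9 and 3.90 times for the endothelial sum, each with replicate 1 on top, and 1.29 and 1.31 times for H2-K1 and Gm11127.

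The genes most like H2-K1 and most like Psmb8 over the 6 libraries were also listed. These correlations are a description over 6 libraries that share 2 groups, taken among 13583 protein-coding genes averaging 1 CPM or more. The 5 genes with the highest Pearson correlation to H2-K1 in log2(CPM + 1) were Syce1, Tex11, Gm13119, Gm4302 and Piwil2 (r = 0.998 to 0.999). Syce1 is a component of the synaptonemal complex, Tex11 a meiotic gene and Piwil2 a PIWI protein of the germline. Syce1 was at 0 to 0.221 CPM in heterozygous and 17.8 to 27.8 CPM in knockout libraries, Piwil2 at 0.817 to 0.905 and 9.39 to 12.3 CPM. Both were higher in every knockout library than in any heterozygous one. The 5 most like Psmb8 were Eng, Pecam1, Aplnr, Myct1 and Col6a2 (r = 0.993 to 0.999), of which Eng and Pecam1 are in the endothelial list and none passed the test. Pecam1 was at 1.32, 3.30 and 2.91 CPM in heterozygous and 33.2, 9.43 and 2.32 CPM in knockout libraries, with replicate 1 highest and replicate 3 within the heterozygous range, as for Psmb8. Among the members, H2-K1 correlated with Gm11127 at r = 0.994 and with Psmb8 at 0.685, and Psmb8 correlated with Psmb9 at 0.937 and with Tap2 at 0.940.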

How the data were processed

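Sorted cap mesenchyme gave 50 ng of RNA per sample for Ultra Low RNA sequencing (Illumina HiSeq2000), per the labels' protocols. Each library has 1 deposited kallisto table, per the submitters' processing notes, with estimated counts, TPM and effective lengths per transcript, per the file headers. The notes name the build mm10; for the kallisto version, annotation, trimming and strandedness, the answer is not given in the sources used here. The effective length is an other value deposited for scaling and served only as an offset in 1 alternative. Each table listed 96626 transcripts. GENCODE vM1 (NCBIM37, not the build named in the notes) paired 74519 of them with 26567 genes, and the 22107 unpaired ones, with 7.18% to 7.6% of counts, were used in the transcript test alone. The overlapping entries named Psmb9 were summed, which left 26566 genes.

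Estimated counts were summed per gene, rounded, and tested with edgeR 4.0.16 (R 4.3.3): TMM normalisation, filterByExpr, robust quasi-likelihood fit without covariates, Benjamini-Hochberg adjustment over all genes or transcripts kept, threshold 0.05. Groups and replicate numbers came from the sample titles. Sex was read as male where Y-linked genes summed to more than 50 CPM. In replicate order this gave male, female and male for heterozygous and female, male and female for knockout libraries. Sex was therefore not balanced between the groups. Libraries of 1 group differed beyond counting noise (chi-square per degree of freedom 13.6 to 41.5). Alternatives were other normalisations, filters and dispersions, DESeq2 1.42.0, limma 3.58.1 (voom, and log2(TPM + 1) and log2(TPM + 0.1)), a transcript-length offset, a replicate block, sex read from Y-linked genes, and each library left out; the class I sum without Gm11127, H2-Ke2 and H2-Ke6 was added after seeing the data. Genes were named if they were members or their transcripts, passed the test in a list or within 50 kb of a member, or were otherwise among the 3 most abundant of a pathway list or the 5 most correlated with H2-K1 or Psmb8; other names are said to be chosen after their values were seen. Members, lists and rules were chosen with earlier results of these data known. 31-mers of GENCODE vM1 protein-coding transcripts were counted in the NCBIM37 genome on both strands; repeat families were not annotated. Promoters came from RefSeq (GRCm38.p6). The fits were tested on simulated data.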

Additional observations from a re-analysis of the deposited data

How the results depend on the processing

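Over the 18 alternatives of the gene fit, all 10 members kept a log2 fold change above 0 in each alternative that could fit them (16 for Tap2 and Psmb9, which the TPM filter removed), and H2-K1, H2-T23 and Gm11127 passed the threshold in every one. The number of members called higher was 3 to 6: 6 without knockout replicate 3, and 3 without heterozygous replicate 2 or 3 and with log2(TPM + 0.1). Genes called higher numbered 836, 1315 with DESeq2, 457 with log2(TPM + 1), 454 with log2(TPM + 0.1), and 526 to 916 with 1 library left out. Genes called lower numbered 327, 1883 with library totals only, 624 with DESeq2, 761 and 756 with log2(TPM + 1) and log2(TPM + 0.1), 162 with sex as a covariate, and 116 to 272 with 1 library left out. Library totals only and the TPM analyses moved the median log2 fold change of all genes to -0.166, -0.126 and -0.142, and the share of called genes that were higher from 71.9% to 28%, 37.5% and 37.5%; the members' directions did not change. Transcripts called higher numbered 795, 200 with the replicate block, 2028 with DESeq2, 448 with sex and 363 to 602 with 1 library left out. Transcripts called lower numbered 100, 12 with the block, 416 with library totals, 706 with DESeq2, 156 with at least 10 counts in every library of 1 group, 35 with sex and 37 to 65 with 1 library left out. The cause of these shifts was not tested. Deviations of same-numbered libraries from their group means correlated at -0.058, -0.048 and -0.031. The sex read from Y-linked genes differed within each same-numbered pair, so these values cannot decide whether the numbers pair the samples. With the replicate block 707 genes were higher, 265 lower and 4 members higher. Tap2, Psmb8 and Psmb9 rested on 19 to 193 counts per library, and the part of depth in their missed calls was not tested; Psmb8 passed without knockout replicate 3 (adjusted p = 0.0358).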
